A study of Mus musculus with 12 samples.

Results

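Glycolysis splits glucose into pyruvate in the cytosol, and lactate dehydrogenase then turns pyruvate into lactate. The 10 genes described here code for enzymes of this route and were taken by symbol, a rule that uses no measured value although earlier results of these data were known, as rows of a count table of 32227 genes. In pathway order they were Hk2, Pfkl, Aldoa, Tpi1, Gapdh, Pgk1, Pgam1, Eno1, Pkm and Ldha, each matched by symbol to 1 protein-coding GENCODE gene of GRCm38 (for Aldoa, the symbol of 2 annotated genes, ENSMUSG00000030695.16). All 10 were in the table and passed the filter on low counts, as did 15083 genes in all (46.8%). Hexokinase and phosphofructokinase are the regulated early steps, which use ATP. Pgk1 and Pkm catalyse the steps that yield ATP, and Ldha restores the NAD+ that Gapdh uses. Granulocytes such as neutrophils have few mitochondria and are known to rely heavily on glycolysis, and proliferating progenitors also draw on it for the carbon of nucleotides and amino acids.

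The table came from bulk RNA sequencing of basophil-lineage cells sorted from C57BL/6J WT mice, with 3 libraries in each of 4 groups and no treatment. The 4 populations were basophil progenitors (BaPs, CD34+), pre-basophils without CD34 (labelled immature basophils, CLEC12A-high and CD9-low), mature basophils of the bone marrow (BM mature, CLEC12A-low and CD9-high) and mature basophils of the spleen (spleen mature). All were sorted as CD200R3+ cKit- cells, and the cells of several animals were pooled for each library, so SDs describe pools rather than single animals. Levels are given in CPM, counts scaled to a common library total after normalisation with TMM (trimmed mean of M values), and values after ± are SDs over 3 libraries unless named as a standard error (SE). A difference was called when its adjusted p was under 0.05 in edgeR's quasi-likelihood test, with Benjamini-Hochberg adjustment over all 15083 tested genes. In bulk samples, fewer cells with a transcript and less transcript per cell cannot be told apart.

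Library totals ran from 3596108 to 8151030 counts. The basophil genes Mcpt8 and Prss34, which code for granule proteases, were present in every library, with Mcpt8 at 553 CPM or more. The mast cell protease gene Mcpt4 was at 0 to 0.243 CPM throughout. With Cma1 and Tpsb2, the 3 mast cell markers in the table summed to 5.62 CPM in BaP replicate 3 and to 0.320 to 1.96 CPM in the other libraries. The library BaP replicate 3 stood apart. Its 8 basophil markers summed to 25390 CPM, against 63080 and 68460 CPM in the other BaP libraries, and its 8 erythroid markers to 2416 CPM, against 5.26 and 6.60 CPM. It held 3.53% mitochondrial counts, and for 9 of 10 glycolysis genes it was the lowest BaP library. The BaP results of members and isoenzymes are therefore also given without it where a call changed. Those of the other listed genes are given with it only.

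Several of these genes have processed copies elsewhere in the genome, so a stretch of Gapdh shared with its copies is shown before the values. Of the distinct 50-base stretches in GENCODE transcripts of Gapdh, 24.7% also occurred in transcripts of other genes. The 50 bases in capitals below, from exon 6 of the coding sequence of transcript Gapdh-202 (GRCm38 chr6:125162311-125162380, minus strand), occurred in 46 of the 57 near-copy rows of Gapdh. A near-copy row is a gene of which at least 20% of the 50-base stretches were shared with the member. A read of this length from the capitals cannot be placed by its sequence alone.
Gapdh: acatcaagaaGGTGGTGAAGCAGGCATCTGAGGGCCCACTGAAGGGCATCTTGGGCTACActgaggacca

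Over the 12 libraries the near-copy rows of Gapdh held 35714 counts and the Gapdh row itself 13035, so that the copies held 274% of its own counts. The same share was 59.8% for Pgk1, 69.0% for Eno1 (Eno1b and Gm4735), 33.5% for Pgam1, 3.58% for Pkm and 0.183% for Tpi1. Hk2, Pfkl, Aldoa and Ldha had no near-copy row. The sources used here do not say how such reads were assigned, so absolute levels of Gapdh, Pgk1, Eno1, Pgam1 and Pkm are uncertain. In a fit chosen after the data were seen, the counts of near-copies were added to the member. It left every call between pre-basophils and BM mature basophils in place. The log2 fold change was 0.95 for Gapdh and 1.06 for Pgk1 from their own rows, and 0.95 and 1.06 with copies. The plot of own rows beside summed rows shows the 2 readings of each gene.

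**Figure D1:**
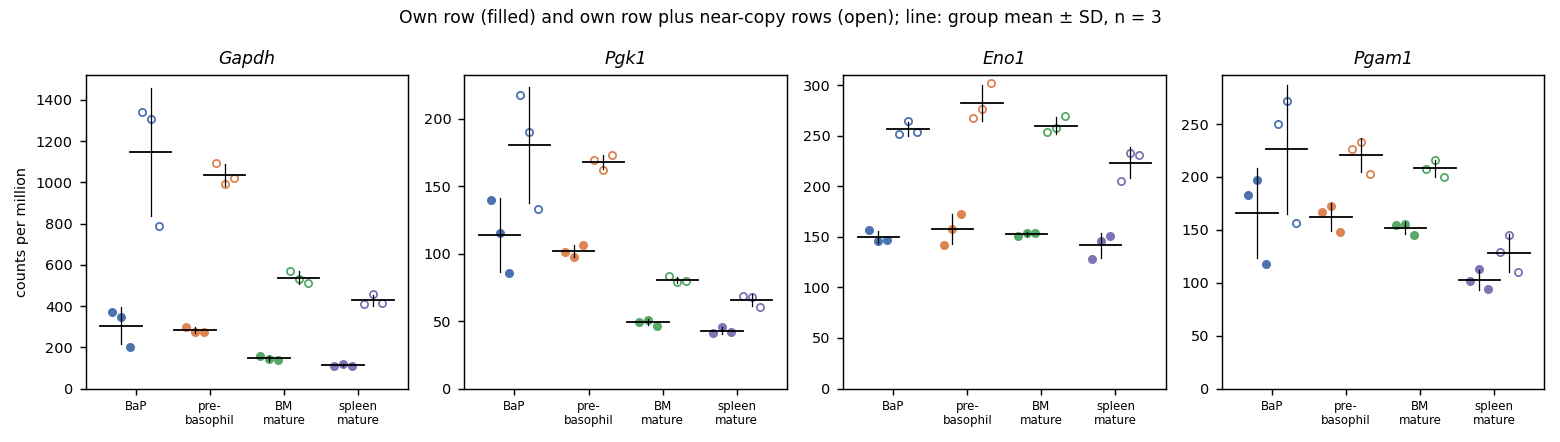
Level in CPM of Gapdh, Pgk1, Eno1 and Pgam1 in each of 12 libraries by group, from the gene's own row (filled points) and with near-copy rows added (open points). Lines are group means ± SD (n = 3). For Gapdh the summed level was 788 to 1341 CPM in BaPs and 411 to 456 CPM in spleen mature basophils, against 201 to 370 and 109 to 118 CPM from the own row, so the order of the groups was the same on either reading.

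Levels are compared between genes here as CPM per kb of exon. This assumes that counts rise with transcript length, which was not tested for these libraries. Without length the order of own rows changed in part. In BaPs Ldha (372 CPM), Aldoa (363) and Pkm (310) then stood above Gapdh (305.5), and in pre-basophils Pkm (347) above Gapdh (283). In the BM mature group Hk2 (84.7) stood above Tpi1 (74.2) and Pgk1 (49.0). In BM mature basophils Aldoa was the most abundant of the 10 at 460 ± 12.3 CPM per kb, followed by Ldha at 206 ± 17.7 and Pkm at 128 ± 4.65. In pre-basophils Ldha led at 296 ± 16.5 CPM per kb, ahead of Aldoa at 256 ± 4.62 and Gapdh at 189 ± 9.32. In BaPs Gapdh at 204 ± 61.3, Aldoa at 199 ± 38.8 and Ldha at 196 ± 38.8 CPM per kb lay within one another's spread. These Gapdh levels leave out its near-copy rows, and adding them turns the order. Per kb of its own exons Gapdh then stood at 766 ± 207 in BaPs and 693 ± 35.3 CPM per kb in pre-basophils, above every other member, and at 360 ± 20.2 in the BM mature group and 286 ± 16.8 in the spleen, second to Aldoa. Pfkl was last in each of the 4 groups, at 4.66 to 7.28 CPM per kb, and Hk2 next to last at 8.71 to 15.8 CPM per kb. The summed level of the 10 genes was 2021 ± 418 CPM in BaPs, 2309 ± 47.1 in pre-basophils, 2237 ± 48.9 in the BM mature group and 1979 ± 139 in the spleen.

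**Figure D2:**
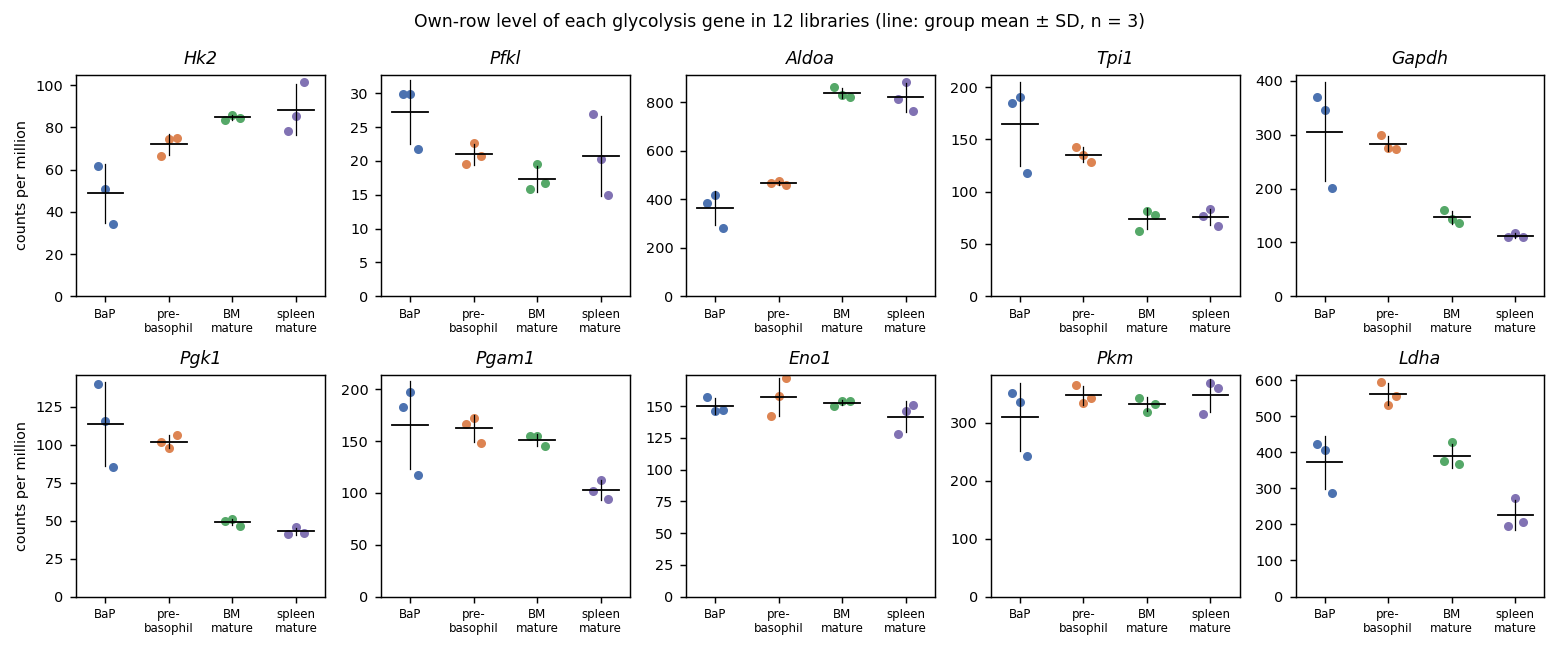
Level in CPM of each glycolysis gene in 12 libraries, by group. Points are libraries, and lines are group means ± SD (n = 3). Aldoa stood at 820 to 864 CPM in BM mature basophils and 460 to 477 CPM in pre-basophils, while Tpi1, Gapdh and Pgk1 went the other way and Eno1 lay between 128 and 172 CPM in all 12 libraries.

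The comparison of pre-basophils with BM mature basophils asked how the enzymes differ between a proliferating and a mature stage within 1 tissue. Tpi1, Gapdh, Pgk1 and Ldha were higher in pre-basophils and Aldoa was lower, so 5 of 10 genes were called, against 27.3% of all tested genes (16.3% higher and 11.0% lower). Hk2, Pfkl, Pgam1, Eno1 and Pkm were not called. The middle of the route was thus split between neighbouring enzymes, with Aldoa on one side and the 3 enzymes after it on the other. The groups did not overlap for 7 of 10 genes, against 47.0% of tested genes. Over the 10 genes the median log2 fold change was 0.19, and over all tested genes it was -0.004.

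Aldoa (chr7:126795234-126800751, minus strand) codes for aldolase A, which cleaves fructose bisphosphate into a pair of triose phosphates. It stood at 466, 477 and 460 CPM in pre-basophils, and BM mature basophils had 864, 832 and 821 CPM. No pre-basophil library reached the lowest BM mature library. The log2 fold change was -0.84 (SE 0.13, adjusted p = 0.000402), a level 1.79 times higher in BM mature basophils. Aldoa has no near-copy row, and it was called under each of 21 alternative fits, at log2 fold changes of -0.87 to -0.62.

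Tpi1 (chr6:124810586-124814296, minus strand) codes for triosephosphate isomerase, which interconverts the 2 products of aldolase. Pre-basophils had 143, 135 and 129 CPM and BM mature basophils 62.7, 81.9 and 78.1 CPM, with no overlap. Its log2 fold change was 0.86 (SE 0.17, adjusted p = 0.00215). Gapdh (chr6:125161715-125166467, minus strand), glyceraldehyde phosphate dehydrogenase, stood at 299, 276 and 274 CPM in pre-basophils, against 160, 144 and 137 CPM among BM mature basophils. Its log2 fold change was 0.95 (SE 0.18, adjusted p = 0.00146). Pgk1 (chrX:106187100-106203699, plus strand), phosphoglycerate kinase, stood at 102, 97.9 and 107 CPM in pre-basophils against 49.7, 50.8 and 46.6 CPM. This was the largest change of the 10 genes, with a log2 fold change of 1.06 (SE 0.15, adjusted p = 0.000236). The 3 genes were called under each of 21 alternative fits, near-copies included.

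Ldha (chr7:46841475-46855627, plus strand) codes for the A subunit of lactate dehydrogenase. It was at 594, 532 and 557 CPM in pre-basophils, against 377, 429 and 366 CPM among BM mature basophils, again without overlap. The log2 fold change was 0.52 (SE 0.16, adjusted p = 0.0247), the smallest of the called changes. It was lost when BM mature replicate 1 or 3 or pre-basophil replicate 1 or 3 was left out, with adjusted p of 0.0592 to 0.101. Library size alone as the scaling added a call for Pkm (log2 fold change 0.29, adjusted p = 0.0489).

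Hk2, the inducible hexokinase, was at 66.2 to 75.0 CPM in pre-basophils and 83.7 to 85.9 CPM in BM mature basophils, a log2 fold change of -0.23 (SE 0.18) that was not called. Pfkl, the liver type phosphofructokinase subunit, had log2 fold change 0.27 (SE 0.21) and was not called either. Pgam1, phosphoglycerate mutase, Eno1, enolase, and Pkm, pyruvate kinase of muscle and other tissues, had log2 fold changes of 0.10 (SE 0.16), 0.05 (SE 0.11) and 0.07 (SE 0.13), and the libraries of the 2 groups overlapped for each. The table sums isoforms, so the M1 and M2 forms of pyruvate kinase cannot be told apart.

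**Figure D3:**
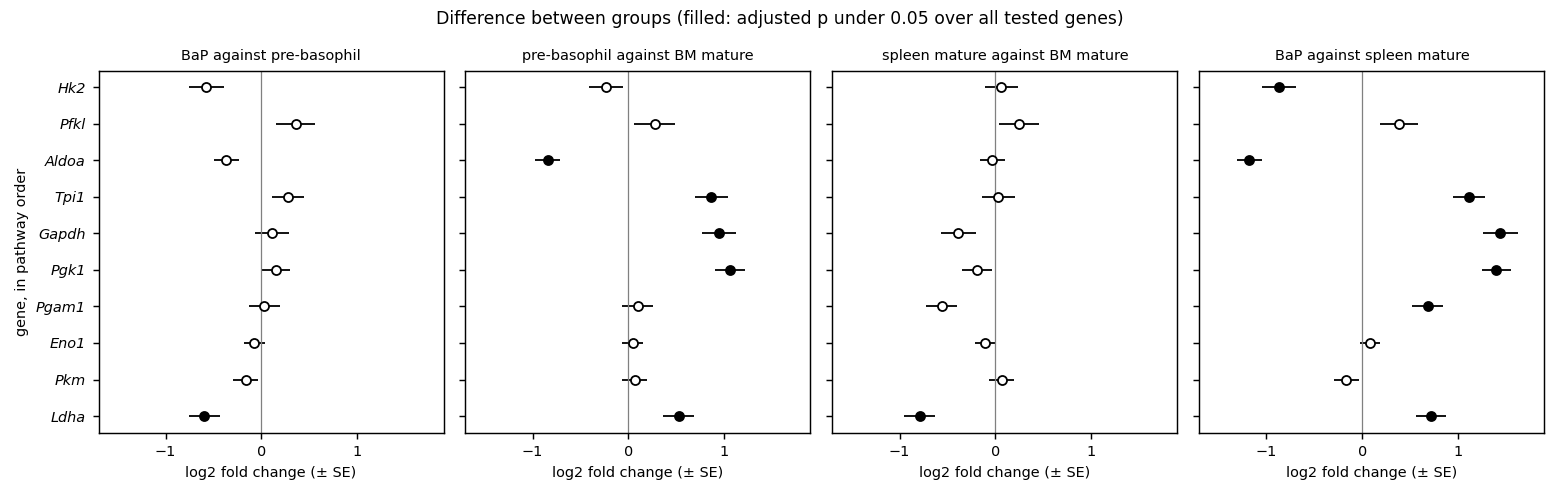
Log2 fold change of each glycolysis gene in 4 comparisons (horizontal axis, ± SE), with genes in pathway order from Hk2 at the top to Ldha at the bottom. Filled points had an adjusted p under 0.05. In pre-basophils against BM mature basophils Aldoa lay at -0.84 and Tpi1, Gapdh and Pgk1 at 0.86 to 1.06, while Eno1 and Pkm were within 0.17 of 0 in each comparison.

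The split between Aldoa and the enzymes after it was also read as a ratio within each library, which does not depend on the scaling of library totals. The counts of Aldoa were 3.27, 3.53 and 3.58 times those of Tpi1 in the pre-basophil libraries and 13.8, 10.2 and 10.5 times in the BM mature libraries. In BaPs the ratio was 2.23 ± 0.158, and in spleen mature basophils 10.6, 10.6 and 11.3. BaP replicate 3 had the highest ratio of the BaPs but still lay below each pre-basophil library. Against Gapdh with its near-copies, Aldoa stood at 0.323 ± 0.0354 in BaPs, 0.453 ± 0.0271 in pre-basophils, 1.56 ± 0.0446 in the BM mature group and 1.92 ± 0.0693 in the spleen. For pre-basophils against BM mature basophils an exact two-sided permutation test gave p = 0.1 for either ratio (3 against 3 libraries), which is the smallest p that 20 assignments allow. These assignments did not keep the pairing of bone marrow libraries by replicate number. The ratios were taken because of the split seen in these same libraries, so this p adds no separate support. A ratio shows unequal change and does not say which of its genes moved.

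**Figure D4:**
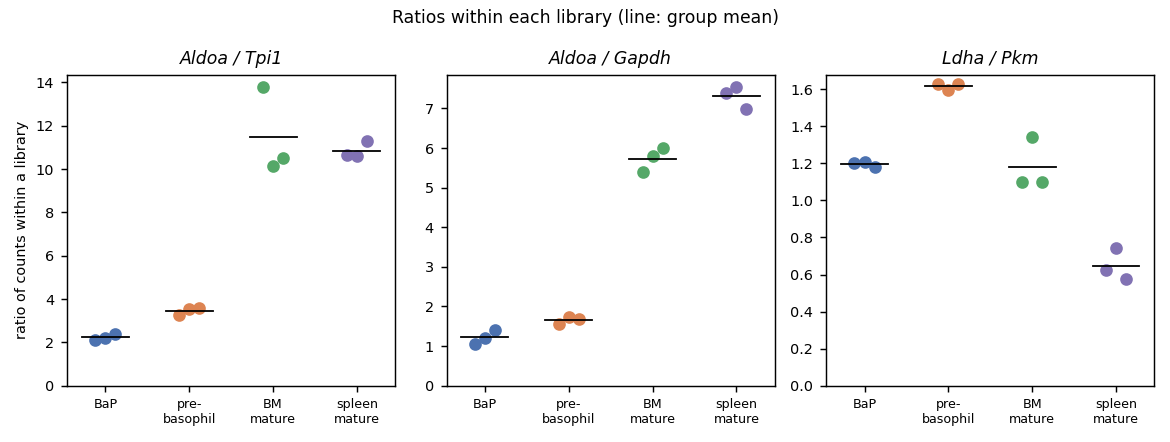
Ratio of counts of Aldoa to Tpi1, Aldoa to Gapdh (own rows) and Ldha to Pkm within each of 12 libraries, by group. Points are libraries and lines are group means (n = 3), on linear axes from 0. Aldoa to Tpi1 had means of 2.23 and 3.46 in BaPs and pre-basophils and 11.5 and 10.9 in BM and spleen mature basophils, and Ldha to Pkm was highest in pre-basophils, at 1.62.

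BaPs were compared with pre-basophils, the CD34+ and CD34- cells that share the CLEC12A-high phenotype. Of the 10 genes only Ldha was called, against 7.08% of all tested genes, and it was lower in BaPs (2.79% of genes were higher and 4.29% lower). Ldha stood at 422, 406 and 287 CPM in BaPs and at 594, 532 and 557 CPM in pre-basophils. The groups did not overlap, and the log2 fold change was -0.59 (SE 0.16, adjusted p = 0.0380). The call was lost under 10 of 21 alternatives, each time with the same sign, including the fits that left out any 1 pre-basophil or BM mature library, and adjusted p over the alternatives ran from 0.00120 to 0.145. The groups did not overlap for 3 of 10 genes, against 25.1% of tested genes.

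Hk2 was at 61.9, 50.7 and 34.1 CPM in BaPs and at 66.2, 74.7 and 75.0 CPM in pre-basophils, a log2 fold change of -0.57 (SE 0.18, adjusted p = 0.0689). Aldoa had a log2 fold change of -0.37 (SE 0.13, adjusted p = 0.108). Tpi1, Gapdh and Pgk1 had 0.28, 0.11 and 0.15, with adjusted p of 0.359, 0.781 and 0.609. Without BaP replicate 3, 3 genes were called, against 12.4% of the 14723 genes then tested. These were Tpi1 at 0.48 (SE 0.12, adjusted p = 0.0151) and Gapdh at 0.35 (SE 0.10, adjusted p = 0.0305), both higher in BaPs, and Ldha at -0.43 (SE 0.13, adjusted p = 0.0373). Not called without it were Hk2 at -0.35 (adjusted p = 0.0995), Aldoa at -0.21 (adjusted p = 0.184), Pgk1 at 0.33 and Pgam1 at 0.24.

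Spleen and BM mature basophils, the same sorted phenotype in 2 tissues, differed for 1 of 10 genes, against 7.83% of tested genes (3.16% higher and 4.67% lower in the spleen). Ldha stood at 197, 274 and 207 CPM in the spleen and at 377, 429 and 366 CPM in the bone marrow. No spleen library reached a bone marrow library, and the log2 fold change was -0.79 (SE 0.16, adjusted p = 0.0121). It was not called without BM mature replicate 2 (adjusted p = 0.0524) or without spleen mature replicate 3 (adjusted p = 0.0704). Pgam1 was at 102, 113 and 94.2 CPM in the spleen and at 155, 155 and 145 CPM in the bone marrow. Its log2 fold change of -0.56 (SE 0.16, adjusted p = 0.0520) was just short of the threshold, and it was called under 7 of 21 alternatives, among them the fit with near-copies added (-0.70, adjusted p = 0.0294).

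Without BaP replicate 3, which is in neither group but shares the fit, Gapdh and Pgam1 were called as well, against 18.0% of genes. The groups did not overlap for 4 of 10 genes between spleen and bone marrow, against 33.7% of tested genes. Besides Ldha and Pgam1 these were Gapdh, with a log2 fold change of -0.38 (SE 0.18), and Pgk1, with -0.19 (SE 0.16), neither of them called. Aldoa, Tpi1, Pkm and Hk2 had log2 fold changes of -0.03, 0.03, 0.07 and 0.06, with overlapping libraries. The ratio of Ldha to Pkm, which acts just before it, was 0.625, 0.745 and 0.575 in the spleen libraries and 1.10, 1.34 and 1.10 in the BM mature libraries. In pre-basophils the ratio was 1.63, 1.59 and 1.63, and in BaPs 1.20, 1.21 and 1.18. The exact two-sided permutation p of spleen against BM mature was 0.1, the smallest possible with 3 against 3 libraries. Ldha was called in these same libraries, so this p adds no separate support.

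BaPs and spleen mature basophils, the ends of the series in stage and tissue, differed for 7 of 10 genes, against 54.5% of tested genes. Tpi1, Gapdh, Pgk1, Pgam1 and Ldha were higher in BaPs (29.8% of tested genes were) and Hk2 and Aldoa lower (24.6% were). The log2 fold changes were 1.11 (SE 0.17) for Tpi1, 1.44 (SE 0.18) for Gapdh, 1.40 (SE 0.15) for Pgk1, 0.68 (SE 0.16) for Pgam1 and 0.72 (SE 0.16) for Ldha. They were -0.87 (SE 0.18) for Hk2 and -1.18 (SE 0.13) for Aldoa, and the largest adjusted p of the 7 was 0.00285, for Pgam1. All 7 were called under each of 21 alternatives. Without BaP replicate 3 Pfkl was called as well, at 0.55 (SE 0.20, adjusted p = 0.0239), and 61.6% of genes were called. The groups did not overlap for 7 of 10 genes, against 59.9%. Across the 4 groups the same fit called 7 of 10 genes, against 57.8% of tested genes, and not Pfkl, Eno1 and Pkm, whose adjusted p were 0.0868, 0.596 and 0.617.

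Scaling bore on these counts. With library totals alone in place of TMM, the median log2 fold change of all tested genes moved from -0.004 to 0.22 for pre-basophils against BM mature basophils, and the share of called genes that were higher from 59.8% to 82.5%. The median moved to 0.23 and the share from 39.4% to 79.6% for BaPs against pre-basophils. They moved to 0.14 and from 40.4% to 60.6% for spleen against BM mature, and to 0.33 and from 54.7% to 73.7% for BaPs against spleen mature. Aldoa, Tpi1, Gapdh, Pgk1 and Ldha kept the signs given above wherever they were called, under each scaling tried.

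Other gene groups moved with these groups of cells. The 14 proliferation genes, which include Mki67, summed to 1662 to 2972 CPM in BaPs, 1914 to 2367 in pre-basophils, 325 to 415 among BM mature cells and 175 to 200 in the spleen, and all 14 were called higher in pre-basophils than in BM mature basophils. The 12 immediate-early and heat shock genes that also respond to handling of cells, which include Fosb and Jun, summed to 20960 to 29930, 43210 to 48070, 92090 to 111900 and 111300 to 130200 CPM in the same order. The 10 neutrophil granule and protease genes, some of which myeloid progenitors also express, summed to 2015 to 2692, 1020 to 2384, 112 to 158.5 and 68.2 to 75.7 CPM. The close BaP sums held unlike mixtures of these genes. In BaPs Mpo ranged from 562 to 1792 CPM, Ngp from 16.0 to 401 and Retnlg from 3.82 to 244, while Prtn3 stayed at 36.5 to 49.3 CPM. Erythroid markers were at 41.1 to 54.8 CPM in pre-basophils and 185 to 203 CPM in BM mature basophils, and B cell markers at 257 to 516 CPM in the spleen against 38.5 to 60.1 CPM in BM mature basophils. The 8 T and NK cell markers summed to 340 to 991 CPM in BaPs and 76.8 to 121.5 CPM in mature basophils. Nkg7 alone was at 326 to 485 CPM in BaPs, while Cd3e ranged from 0 to 31.2 CPM and Ncr1 from 0 to 94.3 CPM. The sum of 991 CPM belonged to BaP replicate 3, against 444 and 340 CPM in the other BaP libraries. The 7 monocyte and macrophage markers reached 222 CPM in BaP replicate 3 and at most 30.7 CPM elsewhere. B cell markers summed to 299 CPM in BaP replicate 3, against 33.9 and 35.4 CPM in the other BaP libraries. Of the 5 platelet markers Itga2b, which was at 286 to 412 CPM in BaPs and 531 to 888 CPM in the spleen, made up most of the sum. Pf4 ranged from 0.717 to 104 CPM in BaPs and from 30.2 to 43.9 CPM in the spleen, and Ppbp from 0.239 to 46.8 and from 73.4 to 175 CPM. The part of these cells and states in the values of glycolysis genes was not tested.

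Promoters of members that were called in at least 1 comparison are shown because hypoxia-inducible factor (HIF) and MYC are known regulators of glycolysis genes. The windows hold the 250 bases before a RefSeq start of the gene (GRCm38.p6), read in the direction of the gene. Those shown overlap no annotated exon (the Tpi1 window does). The Aldoa, Gapdh and Ldha windows lie inside the GENCODE spans given above, before a start within the span. HIF binds ACGTG or GCGTG, and capitals mark these letters on either strand (their reverse complements are CACGT and CACGC). The second of 3 listed Aldoa starts and the first of 2 Ldha starts were taken. The second Ldha window overlapped no exon either, and it held 0 matches to ACGTG and 1 to GCGTG.
Hk2, chr6:82774455-82774704, minus strand: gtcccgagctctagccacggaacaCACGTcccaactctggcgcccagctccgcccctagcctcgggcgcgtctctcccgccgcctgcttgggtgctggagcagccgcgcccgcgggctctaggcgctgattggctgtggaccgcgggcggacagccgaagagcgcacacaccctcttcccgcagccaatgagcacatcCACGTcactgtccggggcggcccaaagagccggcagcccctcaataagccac
Aldoa, chr7:126799255-126799504, minus strand: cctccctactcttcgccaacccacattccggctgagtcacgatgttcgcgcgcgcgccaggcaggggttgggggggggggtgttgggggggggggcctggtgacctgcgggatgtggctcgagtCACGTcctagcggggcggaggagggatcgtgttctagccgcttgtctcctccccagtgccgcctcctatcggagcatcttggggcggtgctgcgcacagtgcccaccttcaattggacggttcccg
Gapdh, chr6:125165774-125166023, minus strand: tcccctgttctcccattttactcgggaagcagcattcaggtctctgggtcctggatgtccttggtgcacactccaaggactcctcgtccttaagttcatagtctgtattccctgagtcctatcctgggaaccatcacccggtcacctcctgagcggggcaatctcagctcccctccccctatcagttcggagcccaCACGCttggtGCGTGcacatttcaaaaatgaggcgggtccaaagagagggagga
Pgk1, chrX:106186850-106187099, plus strand: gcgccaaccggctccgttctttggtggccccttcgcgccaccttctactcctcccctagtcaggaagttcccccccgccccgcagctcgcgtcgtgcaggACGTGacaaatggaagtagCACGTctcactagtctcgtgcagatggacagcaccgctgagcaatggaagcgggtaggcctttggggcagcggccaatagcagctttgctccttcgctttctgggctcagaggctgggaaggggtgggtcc
Pgam1, chr19:41911621-41911870, plus strand: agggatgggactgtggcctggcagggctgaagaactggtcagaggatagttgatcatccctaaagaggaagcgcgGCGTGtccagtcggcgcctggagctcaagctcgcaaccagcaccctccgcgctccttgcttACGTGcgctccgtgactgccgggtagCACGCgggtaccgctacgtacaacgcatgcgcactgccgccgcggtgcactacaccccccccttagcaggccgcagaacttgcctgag
Ldha, chr7:46845554-46845803, plus strand: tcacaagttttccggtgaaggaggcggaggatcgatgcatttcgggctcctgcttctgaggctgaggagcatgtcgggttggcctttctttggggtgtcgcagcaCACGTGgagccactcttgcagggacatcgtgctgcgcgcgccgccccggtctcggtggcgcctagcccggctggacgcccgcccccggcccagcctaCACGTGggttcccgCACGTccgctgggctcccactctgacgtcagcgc

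The Ldha window held 5 matches to ACGTG, Hk2 and Pgk1 each held 2, Aldoa held 1, Gapdh held 2 matches to GCGTG, and Pgam1 held 1 match to ACGTG and 2 to GCGTG. The Ldha window also held 2 copies of CACGTG, the E-box that MYC with MAX can bind, each of which counts as 2 matches to ACGTG. Matches were found in Aldoa, lower in pre-basophils than in BM mature basophils, and in Gapdh, Pgk1 and Ldha, which were higher, but not in Tpi1, which was higher too. Hk2, Pfkl, Pgam1, Eno1 and Pkm, not called there, held matches as well. A link between matches and the direction of change was not tested. Over all windows of the 10 members, at least 1 match to ACGTG or GCGTG was found in 13 of 16 windows. Of the 32851 mouse promoter windows of this length, which were not matched for base content, 38.6% hold one. Counted by gene, 9 of 10 had a match (Tpi1 had none), but some genes had several windows, so that share of windows is no measure for genes. ACGTG alone was in 7 of 16 windows (16.6% of all windows), GCGTG in 7 (28.2%), CACGTG in 1 (6.02%) and GGGCGG, the GC box, in 9 (32.7%). Windows of 1 gene can overlap. A match describes the letters and no binding.

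Most steps have further isoenzymes, coded by other genes. Of 19 listed genes, which also include Gpi1 for a step that no member covers, 18 were in the table and 9 passed the filter, namely Hk1, Hk3, Gpi1, Pfkm, Pfkp, Aldoc, Eno1b, Eno3 and Ldhc. For 2 steps an isoenzyme outside the 10 genes had the largest share of the family. Hk3, a hexokinase of myeloid cells, held 59.2% ± 0.763 of the hexokinase level per kb in BaPs, 67.3% ± 1.12 in pre-basophils, 77.2% ± 2.64 in the BM mature group and 72.2% ± 1.75 in the spleen. Without the correction for length the shares of Hk3 were 48.6%, 57.0%, 68.2% and 62.2%. Hk2 held 13.3% to 16.3% and Hk1, the hexokinase of most tissues, held 24.4% ± 1.45 in BaPs and 9.47% ± 2.34 in BM mature basophils. Pfkp, the platelet type, held 84.4% ± 2.60 to 94.0% ± 1.79 of the phosphofructokinase level per kb, where Pfkl held 4.63% to 11.7%.

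In CPM, Hk3 stood at 116, 114 and 83.4 in BaPs, at 170, 191 and 193 in pre-basophils, against 271, 302 and 308 among BM mature basophils. The 3 groups did not overlap and followed the order of maturity. Hk3 was lower in pre-basophils than in BM mature basophils by a log2 fold change of -0.67 (SE 0.15, adjusted p = 0.00434), and lower in BaPs than in pre-basophils by -0.83 (SE 0.15, adjusted p = 0.00617). It was called under each of 21 alternatives in either comparison. In the spleen it was at 200, 250 and 279 CPM (log2 fold change against BM mature -0.27, adjusted p = 0.272). Of the 9 tested genes of this list, Gpi1 included, 2 were called in pre-basophils against BM mature basophils (27.3% of all tested genes were), 1 between BaPs and pre-basophils (7.08%), 1 between spleen and BM mature (7.83%) and 6 between BaPs and spleen mature (54.5%), so each count lay near the share over all genes.

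Gpi1, glucose phosphate isomerase, which acts between hexokinase and phosphofructokinase, was at 406.5 ± 85.4, 537 ± 20.8, 693 ± 20.3 and 632 ± 18.5 CPM in the 4 groups from BaPs to spleen mature basophils. It was called in BaPs against spleen mature (log2 fold change -0.64, SE 0.13, adjusted p = 0.00125) and not in pre-basophils against BM mature (-0.37, SE 0.13, adjusted p = 0.0569). Pfkp was at 314, 204 and 181 CPM in BaPs and at 485, 305 and 406 CPM in pre-basophils (log2 fold change -0.78, SE 0.22, adjusted p = 0.0503). With the replicate number as a block, which pairs the bone marrow libraries and ties the spleen libraries too, it was called (-0.78, adjusted p = 0.0101). Pfkm, the muscle type, was higher in BaPs than in spleen mature basophils (1.60, SE 0.30, adjusted p = 0.000569), at levels of 7.32 and 2.41 CPM.

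Aldoc, aldolase C of the brain, rested on 64 counts in all. It was higher in pre-basophils than in BM mature basophils, at 1.70 and 0.335 CPM (log2 fold change 2.36, SE 0.71, adjusted p = 0.0234; 0.0690 without BM mature replicate 1 and 0.0765 without pre-basophil replicate 2), while Aldoa, which held at least 99.7% of the aldolase level per kb in each group, was lower. Eno3, the muscle enolase, was at 7.04, 12.4 and 14.2 CPM in the spleen and at 3.18, 7.01 and 4.12 CPM in BM mature basophils (log2 fold change 1.22, SE 0.34, adjusted p = 0.0426). That call was lost under 7 of 21 alternatives, among them the fits without BM mature replicate 1 or 3, pre-basophil replicate 1 or 2, or spleen mature replicate 2 or 3 (adjusted p of 0.0577 to 0.170). Eno1b shared 76.4% of its 50-base stretches with Eno1, so the division of reads between them is uncertain. Ldha held 96.1% to 97.4% of the lactate dehydrogenase level per kb. Ldhb, the B subunit, had 40 counts in BaP replicate 3 and 0 to 3 counts in each of the other 11 libraries.

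**Figure D5:**
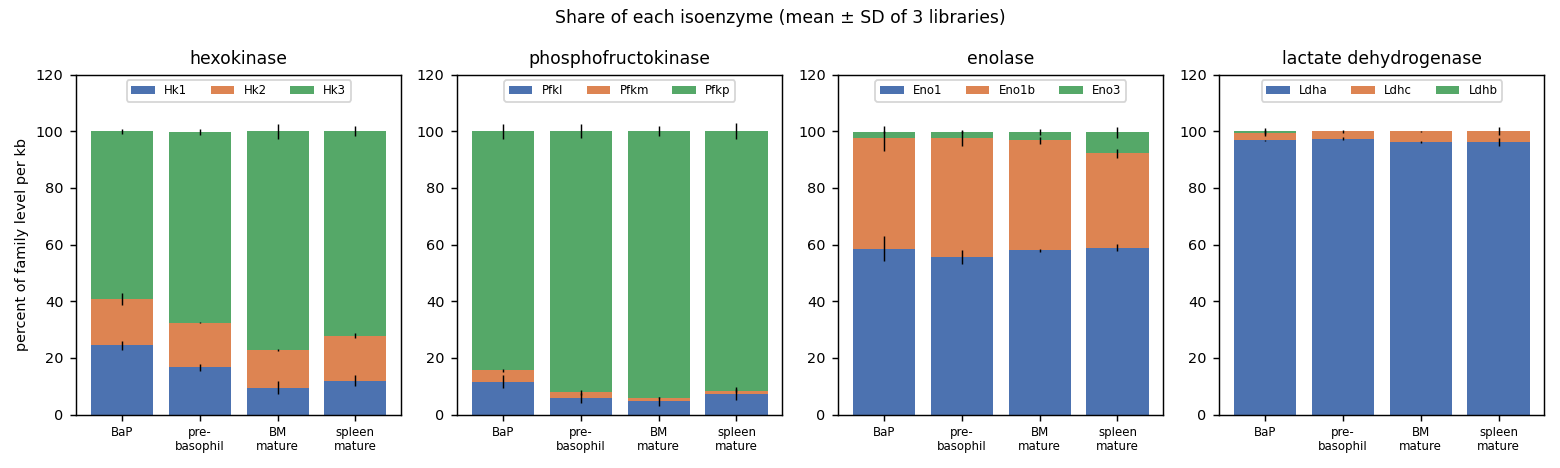
Share of each isoenzyme in the summed level per kb of its family (hexokinase, phosphofructokinase, enolase and lactate dehydrogenase), in percent, as stacked means of 3 libraries with SD bars, for each of the 4 groups. Hk3 held 59.2% in BaPs and 77.2% in BM mature basophils, Pfkp 84.4% to 94.0% and Ldha at least 96.1%, while isoenzymes under 0.4% of their family are not drawn.

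Glucose enters through SLC2A transporters, and lactate leaves through SLC16A transporters with their partner Bsg. Of 12 listed genes 9 were tested and 7 were called in pre-basophils against BM mature basophils, 4 lower and 3 higher. In this comparison 27.3% of all tested genes were called, 11.0% lower and 16.3% higher, and the counts of the lists that follow stand against the same shares. Slc2a3, which codes for a high-affinity glucose transporter, was at 299.5 ± 36.1 CPM in pre-basophils, against 624 ± 173 among BM mature basophils (log2 fold change -1.06, SE 0.20, adjusted p = 0.00148). Slc2a1 (-0.88), Slc2a6 (-0.76) and Slc16a3, a lactate exporter (-0.70), were also lower. Slc2a8 (2.09), Slc16a1 (1.79) and Bsg (0.58) were higher in pre-basophils. Slc2a3, Slc2a6 and Slc16a3 were lower in BaPs than in pre-basophils, at -0.89, -1.02 and -0.80.

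The serine and glycine branch leaves glycolysis after Pgk1. All 5 of its genes, Phgdh, Psat1, Psph, Shmt1 and Shmt2, were called higher in pre-basophils than in BM mature basophils, with a median log2 fold change of 2.09. Psat1, phosphoserine aminotransferase, was at 24.2 ± 3.46 and 2.35 ± 0.415 CPM (log2 fold change 3.33, SE 0.32, adjusted p = 9.082e-06), and Psph, the phosphatase that completes serine, had the smallest change at 0.81. Phgdh, which opens the branch, Shmt1 and Shmt2 were also higher in BaPs than in pre-basophils, by 0.86, 1.62 and 0.96. The summed level was 127 to 170 CPM in BaPs, 81.6 to 95.3 in pre-basophils, 24.0 to 24.8 among BM mature cells and 22.3 to 23.6 in the spleen.

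Of 8 tested genes that carry pyruvate into the mitochondrion, 4 were higher and 1 lower in pre-basophils than in BM mature basophils. Pdhx, a subunit of pyruvate dehydrogenase, had the largest change at 1.37, and Mpc2, a subunit of the mitochondrial pyruvate carrier, was lower at -0.57 and 558 ± 28.5 against 828 ± 50.6 CPM. Mpc1 and Mpc2 were lower in the spleen than in the bone marrow, at -0.81 and -0.60. Of 8 pentose phosphate genes, Tkt, transketolase, was higher in pre-basophils (0.59) and Taldo1, transaldolase, lower (-0.38), and Rpia and Rpe were lower in the spleen (-0.90 and -0.55). Of 11 tested genes of glycogen and gluconeogenesis, 3 were called in pre-basophils against BM mature basophils, all higher, with G6pc3 at 1.30 and Pck2 at 0.70. Of 2 tested glycerol phosphate genes, Gpd2 was higher at 0.51.

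Regulators of the route were also listed. Of 7 tested HIF pathway genes, Hif1a was higher in pre-basophils than in BM mature basophils, at 87.2 ± 6.51 and 44.9 ± 6.64 CPM (log2 fold change 0.96, adjusted p = 0.000237), and lower in the spleen (-0.50, adjusted p = 0.0474). Egln1, an oxygen-sensing prolyl hydroxylase that marks HIF for decay, was higher in the spleen (1.52). Of 12 tested HIF targets outside glycolysis 2 were higher and 2 lower in pre-basophils, near the 27.3% of all tested genes that were called. Ddit4 was at 333 ± 61.3 against 1099 ± 332 CPM (-1.72), and Car9 at 5.95 and 2.79 CPM (1.10, adjusted p = 0.0479).

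Of 9 listed genes of MYC and its MAX network 7 were tested. Myc was the only MYC gene among these, as Mycn and Mycl did not pass the filter. In pre-basophils against BM mature basophils 6 were called, against 27.3% of all tested genes (16.3% higher and 11.0% lower). Max, Mxd1, Mxd4, Mga and Mnt were lower and Mxd3 was higher, while Myc was not called. Mxd1, a MAX partner that opposes MYC, was at 162 ± 30.7 against 358 ± 64.9 CPM (-1.14), and Mxd3, which is expressed in dividing cells, was higher at 3.38. Myc itself was at 41.0 ± 5.73 CPM in BaPs, 16.1 ± 1.22 in pre-basophils, 18.2 ± 4.64 in the BM mature group and 57.5 ± 9.27 in the spleen. It was called higher in BaPs than in pre-basophils (1.35, adjusted p = 0.00120) and in the spleen than in the bone marrow (1.66, adjusted p = 0.000747). Of 10 tested regulators of flux, 3 were called in pre-basophils against BM mature basophils, all lower. Of all tested genes 27.3% were called in either direction and 11.0% were called lower. Mlxip, a glucose-responsive transcription factor, was at -0.64 and Pdk3, a kinase that inhibits pyruvate dehydrogenase, at -0.52. Txnip, a glucose-induced inhibitor of glucose uptake, was at 154 ± 40.9 CPM in BM mature and 425 ± 48.4 CPM in spleen mature basophils (1.47, adjusted p = 0.00108).

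Among the members, log2 CPM over the 12 libraries ran most closely together for Gapdh and Pgk1 (Pearson's r 0.98), Tpi1 and Pgk1 (0.96) and Tpi1 and Gapdh (0.93). Aldoa ran against Tpi1, Gapdh and Pgk1 (-0.83, -0.80 and -0.87) and with Hk2 (0.86). These libraries share groups, scaling and depth, so the values describe these 12 libraries only. The genes outside the lists most like the mean standardised level of the 10 members were Adgrg1 (r 0.97), Cst3 (0.95), Alox5 (0.95), Dynlt1-ps1 (0.95) and Reep5 (0.95), again over 12 libraries. Given that members moved in opposite directions, this mean is a narrow summary of them.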

How the data were processed

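RNA of sorted cells was amplified by TAS-Seq and sequenced. Per the study's methods, the authors trimmed reads with Cutadapt 3.4 and aligned them with Bowtie2 2.4.2 to mouse reference RNA of GRCm38. The submitters' processing notes list GRCm39, and this difference could not be settled. The deposited values are raw counts per gene symbol for 12 libraries of 3596108 to 8151030 counts. The strand setting and the rule for reads with several matches are not given in the sources used here. Nothing says whether pools shared animals, so p-values measure the spread between these libraries.

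All 12 libraries were fitted together in edgeR 4.0.16 (R 4.3.3) with TMM scaling, the filterByExpr filter, the quasi-likelihood F test and Benjamini-Hochberg adjustment at 0.05. SE is the log2 fold change divided by the square root of F. Gene annotation was GENCODE M21. Alternatives changed scaling, filter, tool (DESeq2 1.42.0, limma 3.58.1), libraries and the replicate block. The fit was tested on simulated data. No pair of libraries agreed within sampling noise.

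Same-numbered libraries of the 3 bone marrow groups deviated together (correlations of 0.125 to 0.262 in 9 pairs), so the numbers were read as pairing them. The 36 pairs of different number had correlations of -0.206 to 0.0758. Replicate 3 was the deepest library of each bone marrow group, and the part of depth was not tested. With the spleen the 9 correlations of the same number were 0.0004 to 0.0899, so no clear pairing was read there.

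The members and 22 gene lists were chosen with earlier results of these data known. The text names every member, isoenzymes that were called or have the largest share of a family, called genes of the lists, and the 5 genes most like the members' mean. Some listed items are not reported here.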

Additional observations from a re-analysis of the deposited data

How the results depend on the processing

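No value changed sign among the calls. Of the counts of called members and isoenzymes under the alternatives, 161 stayed within 1.5 times and 47 moved further. Among the other values followed, 3409 stayed the same in call or range, 218 lost a call, 92 gained one and 122 moved otherwise. The counts follow, with some that stayed within 1.5 times. Between BaPs and pre-basophils the count of called members (1) was 0 with RLE scaling, library size alone, DEGES scaling or only the 6 libraries compared, 2 with no filter or limma-voom, and 0 to 3 when 1 library was left out. For the list of isoenzymes and Gpi1 (1) it was 3 with no filter, 2 with DESeq2, limma-voom or the replicate block, and 1 to 2 with 1 library left out. Between spleen and BM mature basophils the members called (1) were 2 with no filter, DESeq2 or near-copies added, 3 with only the 6 libraries compared, and 0 to 3 with 1 library left out. With the replicate block they were 2, Pgam1 being added (-0.56, adjusted p = 0.0160). That block ties the spleen libraries to the bone marrow by number, for which no clear pairing was read. For isoenzymes (1) the count was 2 with no filter, 0 with limma-voom, 4 with the 6 libraries and 0 to 3 with 1 library left out. Between pre-basophils and BM mature basophils the isoenzymes called (2) were 4 with library size alone and 1 to 3 with 1 library left out, and the members called (5) were 4 to 5 with 1 library left out and 6 with library size alone. Between BaPs and spleen mature basophils 7 to 8 members and 4 to 7 isoenzymes were called with 1 library left out. The replicate block changed no other call of a member or isoenzyme among the bone marrow groups than that of Pfkp between BaPs and pre-basophils. The causes were not tested. The adding of near-copies was chosen after seeing the data. Low counts limit Aldoc, Pfkm and Eno3, and the assignment of shared reads limits Gapdh, Pgk1, Pgam1, Eno1 and Pkm.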

Other observations

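Gapdh and Pgk1 are often used as reference genes. Of 13 such genes, a list added after the values were seen, 4 were higher and 2 lower in pre-basophils than in BM mature basophils, against 16.3% and 11.0% of all tested genes, and the 4 include Gapdh and Pgk1 themselves. Hprt, of purine salvage, differed by a log2 fold change of 1.05 and Ppia, cyclophilin A, by 0.88, while Ywhaz differed by -0.56. Actb, beta-actin, was lower in the spleen than in the bone marrow by a log2 fold change of -1.17. Tbp, Polr2a and Sdha were not called in any of the 4 comparisons or across the groups.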
